A study of Mus musculus with 282 samples.

Results

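The Polycomb complex genes described here are 10 genes taken by symbol: Bmi1, Ring1, Rnf2, Ezh1, Ezh2, Eed, Suz12, Cbx2, Cbx7 and Cbx8. All 10 were matched to a row among the 49671 Ensembl genes of the deposited count table. They were followed in single hematopoietic stem cells (HSCs) of adult mouse bone marrow, sorted as LSK CD48-/lo CD150+, where LSK means Sca-1-positive, Kit-positive cells without lineage markers. All mice were homozygous for 2 knocked-in alleles, the rtTA transactivator at Rosa26 and an H2B-GFP histone reporter at Col1a1, and none was induced with doxycycline. The series description gives 6 mice aged 12 to 22 weeks in 2 independent experiments, and the labels tie no cell to a mouse, so the cells form 1 group and count as 1 sample. Of 282 wells, 232 held at least 100000 gene counts and 1000 genes and were kept as cells. Library numbers in the labels begin with 32 or 29, and crossing them with the labels' HSC code gave 6 sets, named L32 HSC-2 to HSC-5, L29 HSC-3 and L29 HSC-4. The labels do not explain the code. P-values over sets therefore speak of differences among sets alone, and those may be technical.

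Polycomb proteins keep developmental genes silent through 2 complexes that modify histones. In PRC2, Ezh2 or its paralog Ezh1 methylates a lysine of histone H3, and needs Eed and Suz12 to do so. In PRC1, Ring1 or Rnf2 ubiquitinates histone H2A together with a Pcgf protein such as Bmi1, and a Cbx protein reads the methylated H3. Bmi1 is known for its requirement in HSC self-renewal, where it restrains the Cdkn2a locus, and the choice among Cbx proteins is known to bear on the balance between self-renewal and differentiation. Ezh2 is known as the form of dividing cells and Ezh1 as the form of resting cells.

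Gene counts per kept cell ran from 116009 to 1680714, with a median of 280096. The set L29 HSC-4 stood apart: its cells had a median of 4151 genes detected and 6.66% mitochondrial counts, against 5126 to 5686 genes and 3.28% to 3.73% in the other sets. The sorted cell type was checked with markers. All 26 HSC identity genes reached 10 CPM (counts scaled to a common total of gene counts per cell) in at least 10% of kept cells, and 17 did so in at least 50%. Among 12 myeloid markers only Lyz2 (87.1% of cells) and Prtn3 (81.9%) reached 10% of cells, while Elane and Ctsg were at 0. Of the other markers, 2 of 10 erythroid, 1 of 12 lymphoid, 5 of 7 megakaryocyte and 3 of 8 stromal or endothelial genes reached 10% of cells.

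The Polycomb genes were found in a minority of cells each. Detection here means 10 CPM or more, equal to 2.8 reads in the median kept cell. Rnf2, the E3 ligase of PRC1 also called Ring1B, was detected most often, in 93 of 232 cells (40.1%, exact Clopper-Pearson 95% interval 33.7% to 46.7%). Ezh1 followed with 57 cells (24.6%, interval 19.2% to 30.6%). Ezh2 and Eed, the subunit that binds methylated H3, were each detected in 45 cells (19.4%, interval 14.5% to 25.1%). Bmi1 was detected in 44 cells (19.0%, interval 14.1% to 24.6%), Cbx7 in 42 (18.1%, interval 13.4% to 23.7%) and Suz12, the scaffold of PRC2, in 40 (17.2%, interval 12.6% to 22.7%). The 3 least frequent were Ring1 with 17 cells (7.33%), Cbx8 with 16 (6.90%) and Cbx2 with 13 (5.60%). In all, 7 of the 10 reached 10% of cells and 0 reached 50%, with a median of 18.5%. For comparison, 9689 of the 49671 genes reached 10% of cells and 2126 reached 50%. The median was 0% over all 49671 genes and 27.6% over those 9689. The latter leaves out every gene under 10% of cells, while the median over the 10 members includes 3 such genes. Intervals and floors cover counting error only. The intervals treat the cells as independent and leave out differences between mice and between sets. The protocol used no molecular identifiers, so PCR copies are counted again.

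**Figure D1:**
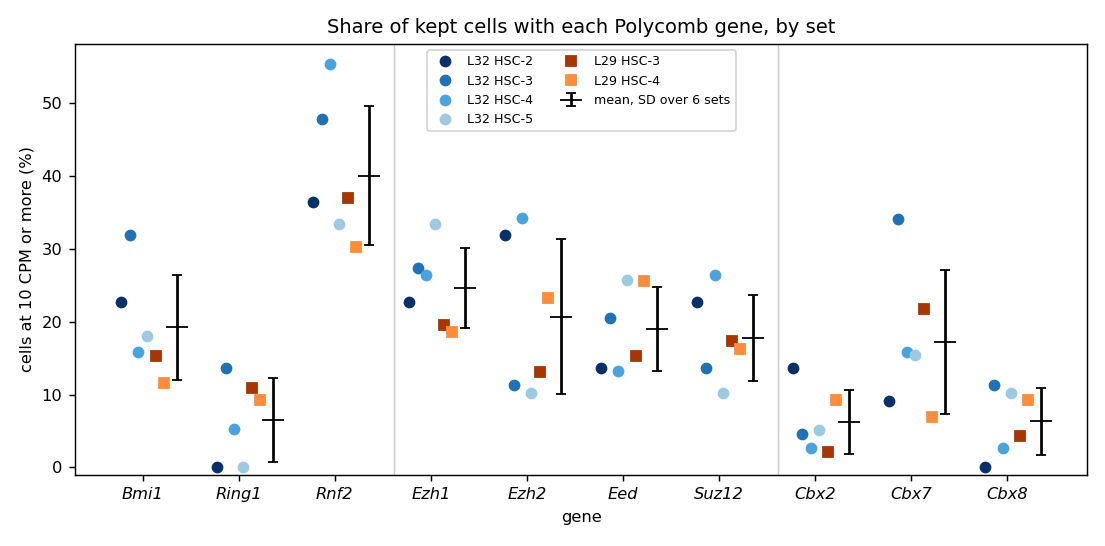
Share of kept cells (%) with at least 10 CPM of each Polycomb gene; points are the 6 sets (22 to 46 cells each), and bars are the mean and SD over sets. Rnf2 lies at 30.2% or more in every set, Ring1, Cbx2 and Cbx8 lie at or below 13.6%, and the other genes overlap one another.

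Shares varied between sets. Bmi1 was detected in 22.7%, 31.8%, 15.8% and 17.9% of cells in L32 HSC-2 to HSC-5, and in 15.2% and 11.6% in L29 HSC-3 and HSC-4. Cbx7 had an SD of 9.81 percentage points over sets, with 34.1% of cells in L32 HSC-3 and 6.98% in L29 HSC-4. Ring1 was not detected in any of the 22 cells of L32 HSC-2 or the 39 cells of L32 HSC-5. With any read as the bar, Cbx8 was seen in 12.9% of cells, Cbx2 in 11.6% and Ring1 in 9.48%. When each cell was thinned to 100000 reads and 1 read counted as detected, Rnf2 was seen in 42.2%, Ezh1 in 25.9%, Ezh2 in 24.1% and Cbx2 in 6.90% of cells.

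Levels were compared between genes as CPM per kb of exon length, from the summed counts of each set. Rnf2 had the highest level, 29.4 ± 4.84 CPM per kb (mean ± SD, n = 6 sets). It was followed by Eed with 14.7 ± 7.03, Ezh1 with 12.4 ± 6.21, Bmi1 with 11.7 ± 5.91 and Suz12 with 7.49 ± 5.30 CPM per kb. Cbx7 had 5.48 ± 2.75, Ezh2 5.11 ± 3.08, Cbx8 3.99 ± 4.01, Cbx2 1.97 ± 1.16 and Ring1 1.83 ± 1.67 CPM per kb. Only the step from Rnf2 to Eed was larger than the larger of the neighbours' SDs, and Rnf2 was above Eed in 5 of 6 sets. No other neighbours in this order differed beyond their spread, and the set ranges of all neighbours overlapped.

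**Figure D2:**
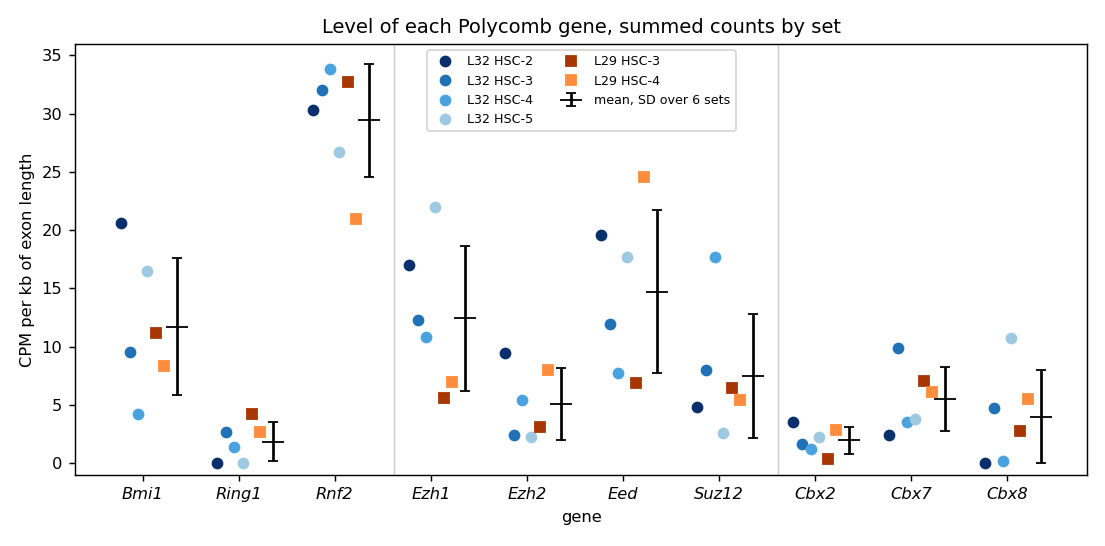
Level of each Polycomb gene in CPM per kb of exon length, from the summed counts of the kept cells of each set; points are the 6 sets, bars the mean and SD. Rnf2 holds 21.0 to 33.8 CPM per kb, while the range of each other gene is wider than its mean. In L32 HSC-2 a single cell held 58.1% of the Rnf2 reads, and the level without it was 14.7 CPM per kb.

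The reads of each gene came from few cells. The 10 highest cells held 34.0% of all Rnf2 reads, 49.0% of Ezh2 reads, 55.4% of Ezh1 reads, 59.7% of Bmi1 reads and 90% of Cbx8 reads. A single cell held 32.8% of the Cbx8 reads. Where a gene was detected it was seldom close to the bar: the median over detecting cells was 279 CPM for Rnf2, 263 CPM for Ezh1, 147 CPM for Ezh2 and 170 CPM for Bmi1. Over all kept cells the median was 0 CPM for each of the 10 genes.

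Rnf2 carried nearly all PRC1 ligase counts. Rnf2 lies at chr1:151458004-151500955 (mm10, minus strand) and its paralog Ring1 at chr17:34020792-34024680 (minus strand). Ring1 had 0, 2.69, 1.39 and 0 CPM per kb in L32 HSC-2 to HSC-5, and 4.19 and 2.70 in L29 HSC-3 and HSC-4. Rnf2 had 30.3, 32.1, 33.8 and 26.7 CPM per kb in the same L32 sets, and 32.7 and 21.0 in the L29 sets. The lowest Rnf2 level was thus above the highest Ring1 level. In L32 HSC-2 a single cell held 58.1% of the Rnf2 reads, and the Rnf2 level without it was 14.7 CPM per kb. Rnf2 was 11.9-fold and 24.3-fold higher than Ring1 in L32 HSC-3 and HSC-4, and 7.81-fold and 7.76-fold higher in L29 HSC-3 and HSC-4. In L32 HSC-2 and HSC-5, where Ring1 had 0 reads, Rnf2 was at least 319-fold and at least 412-fold higher, against a floor of 3 reads per set. On the log2(CPM per kb + 0.1) scale the difference Ring1 minus Rnf2 was -5.03 ± 2.49 (SD over 6 sets), negative in 6 of 6. The size depends on the pseudocount, which sets the value of the 2 sets without Ring1 reads, and was -3.68 with a pseudocount of 1. The two-sided exact sign-flip p was 0.03125 with either, the smallest that 6 sets can give, and 0.104 with the pseudocount of 0.1 after Benjamini-Hochberg adjustment over the 5 paralog pairs tested. Because all 6 sets were negative, leaving out any set had to give a sign-flip p of 0.0625, the smallest that 5 sets can give. Leaving out a set thus adds no support. At the bar of 10 CPM, 12 single cells had both genes, 5 had Ring1 only and 81 had Rnf2 only. The 5 cells with Ring1 only at this bar were all in the L29 sets, 3 in HSC-3 and 2 in HSC-4. The product of the shares within sets would put 7.03 cells in the class with both. Rnf2 shares at most 316 exon bases with Trmt1l on the opposite strand, which had 7047 reads against 9206 for Rnf2. Whether counting used strand is not stated in the labels, so reads of such partners cannot be told apart. Across cells within sets the mean partial Spearman rho of Rnf2 with Trmt1l was -0.055.

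Bmi1 (chr2:18677018-18686629, plus strand) was the Pcgf partner followed here. It had 20.6, 9.59, 4.19 and 16.5 CPM per kb in L32 HSC-2 to HSC-5, and 11.2 and 8.30 in L29 HSC-3 and HSC-4. L32 HSC-2 was highest and L32 HSC-4 lowest, and the L29 sets lay between them. In L32 HSC-5 a single cell held 60.5% of the Bmi1 reads.

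Ezh1 and Ezh2 were both present, with Ezh1 higher in most sets. Ezh1 lies at chr11:101191115-101226463 and Ezh2 at chr6:47530139-47595341, both on the minus strand. Their promoters are shown because the 2 genes are alternatives for the same place in PRC2 and related differently to the growth genes described further on. Each is the RefSeq window from 250 bases before to 50 bases after the annotated start (build GRCm38.p6), read 5′ to 3′ on the minus strand, at chr11:101226414-101226713 for Ezh1 and chr6:47594981-47595280 for Ezh2. Capitals mark matches to the CCAAT word or its reverse complement, ATTGG, and to E2F words, and the Ezh1 window holds no match.
Ezh1: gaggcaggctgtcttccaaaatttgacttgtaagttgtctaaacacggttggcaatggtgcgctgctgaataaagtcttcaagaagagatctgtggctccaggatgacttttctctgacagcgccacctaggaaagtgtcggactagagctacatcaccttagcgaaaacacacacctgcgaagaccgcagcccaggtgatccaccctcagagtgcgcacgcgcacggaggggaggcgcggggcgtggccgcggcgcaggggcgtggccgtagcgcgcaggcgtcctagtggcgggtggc
Ezh2: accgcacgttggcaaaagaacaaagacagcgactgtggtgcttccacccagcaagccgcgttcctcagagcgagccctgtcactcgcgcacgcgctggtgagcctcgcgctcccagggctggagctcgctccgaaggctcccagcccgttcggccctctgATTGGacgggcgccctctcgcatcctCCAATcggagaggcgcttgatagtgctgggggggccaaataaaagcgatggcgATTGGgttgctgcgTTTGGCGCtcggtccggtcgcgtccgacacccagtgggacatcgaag
The E2F words searched on both strands were TTTGGCGC, TTTCCCGC, TTTGCCGC and TTTCGCGC. The Ezh2 window held TTTGGCGC once, at base 254 of 300, and 3 CCAAT matches. Of 32851 RefSeq mouse promoters of this length, 744 (2.26%) held an E2F word and 37.4% held CCAAT. Windows were found for 9 of the 10 members, all but Cbx2. Besides Ezh2, only the Suz12 window held an E2F word among them. GC content was 59.3% in the Ezh1 window and 64.3% in the Ezh2 window, against a median of 52.7% over all these promoters. The count of the dinucleotide CG was 23 for Ezh1 and 31 for Ezh2, against a median of 7. The Suz12 window had 71% GC and a count of 41. Every E2F word searched contains CG, and the share of 2.26% was not matched for GC or CG content. That share therefore cannot tell whether the Ezh2 match is rare among promoters of like composition. A match of letters is a description and not a binding site, and no factor was measured here.

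Ezh1 had 17.0, 12.3, 10.8 and 22.0 CPM per kb in L32 HSC-2 to HSC-5, and 5.59 and 6.93 in L29 HSC-3 and HSC-4. Ezh2 had 9.49, 2.41, 5.39 and 2.21 CPM per kb in the same L32 sets, and 3.11 and 8.02 in the L29 sets. Ezh1 was the higher gene in 5 of 6 sets, and only L29 HSC-4, the set with fewer genes and more mitochondrial counts, was the other way round. The ratio of Ezh1 to Ezh2 per kb was 1.79, 5.10, 2.00 and 9.95 in L32 HSC-2 to HSC-5, and 1.80 and 0.863 in L29 HSC-3 and HSC-4. A single cell held 63.7% of the Ezh1 reads in L32 HSC-2 and 51.1% in L32 HSC-5. Without the cell highest for Ezh1 the ratio was 0.651 in L32 HSC-2, so that its direction turned, and 4.87 in L32 HSC-5. Single cells also held 64.4% of the Ezh2 reads in L32 HSC-3 and 52.6% in L32 HSC-5, and the ratios without them were 13.6 and 21.0. In L29 HSC-4 the ratio was 1.04 without the cell highest for Ezh2, so that its direction also turned, and 0.520 without the cell highest for Ezh1. In log2 the difference Ezh1 minus Ezh2 was 1.33 ± 1.24 (SD, n = 6 sets), with a two-sided exact sign-flip p of 0.0625 and 0.104 after adjustment over the 5 pairs. Without L29 HSC-4 the difference was 1.64. With each gene taken without its highest cell in every set it was 1.35 ± 1.71, positive in 4 of 6 sets (exact p = 0.125). The 2 genes differed less in how many cells held them: the share of cells with Ezh1 minus that with Ezh2 was 3.98 ± 13.4 percentage points over sets (exact p = 0.50). With any read as detection, Ezh1 was seen in 26.7% of cells and Ezh2 in 25.4%. In detecting cells, the median was 35.3 CPM per kb for Ezh1 and 22.0 CPM per kb for Ezh2.

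Most cells with an Ezh gene at 10 CPM had only 1 of the 2. Of 232 cells, 43 had Ezh1 only, 14 had both, 31 had Ezh2 only and 144 had neither. Shares that multiply within each set would give 10.7 cells with both, so the count of 14 was not below that product. In those 14 cells Ezh1 was higher per kb in 7 and Ezh2 in 7. Across cells within sets their mean partial rho was 0.072, positive in 4 of 6 sets. The balance differed between sets: L32 HSC-5 had 12 cells with Ezh1 only and 3 with Ezh2 only, L32 HSC-3 had 8 and 1, L32 HSC-4 had 7 and 10, and L29 HSC-4 had 5 and 7.

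**Figure D3:**
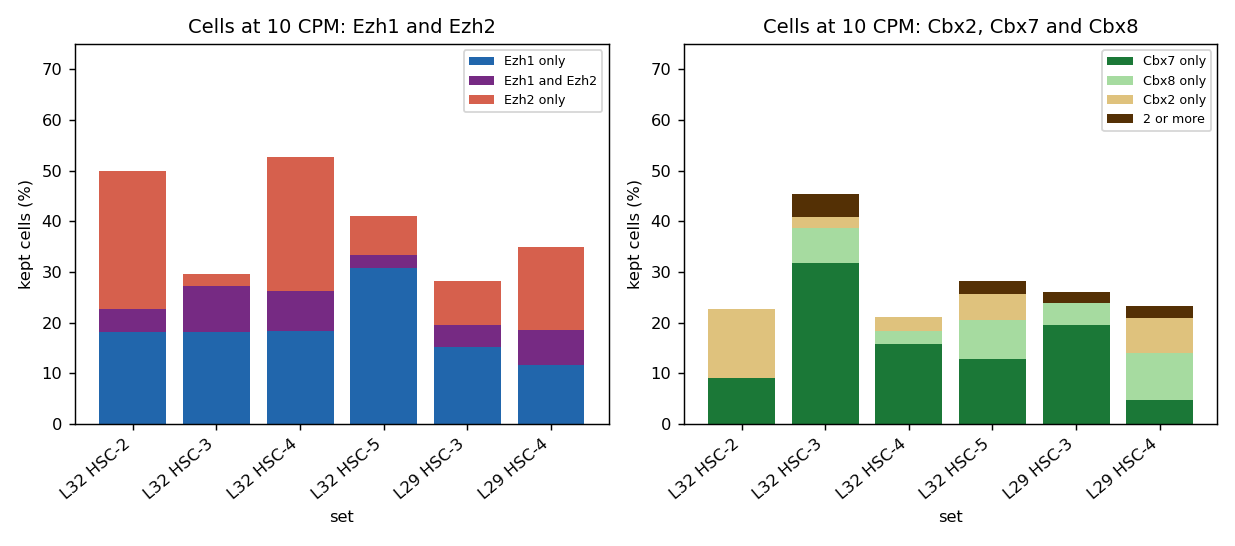
Share of kept cells (%) in each set at 10 CPM for Ezh1 only, both or Ezh2 only (left), and for a single one or at least 2 of Cbx7, Cbx8 and Cbx2 (right). Ezh1-only cells are the larger class in L32 HSC-3, L32 HSC-5 and L29 HSC-3, and Cbx7-only cells make up 31.8% of L32 HSC-3 but 4.65% of L29 HSC-4.

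Few cells had both core partners of the Ezh enzymes at 10 CPM. Eed (chr7:89954654-89980983, minus strand) had 19.6, 11.9, 7.71 and 17.7 CPM per kb in L32 HSC-2 to HSC-5, and 6.90 and 24.6 in L29 HSC-3 and HSC-4. The L29 sets were thus the lowest and the highest. In L32 HSC-2 a single cell held 58.6% of the Eed reads, and the Eed level without it was 9.35 CPM per kb. Suz12 (chr11:79993106-80034123, plus strand) had 4.84, 7.96, 17.7 and 2.56 CPM per kb in L32 HSC-2 to HSC-5, and 6.48 and 5.40 in L29 HSC-3 and HSC-4. L32 HSC-4 was highest, with 47.6% of its Suz12 reads in 1 cell and 10.4 CPM per kb without it. As a mean over cells, Suz12 had 49.5 CPM in L32 HSC-4, close to 47.2 CPM in L32 HSC-3. Eed and Suz12 were both at 10 CPM in 9 cells, and 7 of these (3.02% of 232) also had Ezh1 or Ezh2. With Eed detected in 19.4% and Suz12 in 17.2% of all kept cells, few cells with both are to be expected. The low count is therefore no result about the complex. At least 1 of the 4 PRC2 genes was detected in 128 cells, and at least 1 of the 6 PRC1 genes in 147. Eed, Ezh2 and Suz12 overlap antisense genes in the annotation, of which E230029C05Rik at the Eed locus had the most reads, 431 against 4028 for Eed.

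Among Cbx2, Cbx7 and Cbx8, Cbx7 was detected most often. Cbx7 lies at chr15:79915807-79971119 on the minus strand, and Cbx2 (chr11:119022962-119031270, plus strand) and Cbx8 (chr11:119036305-119040969, minus strand) are neighbours on chromosome 11. Cbx7 had 2.46, 9.85, 3.57 and 3.79 CPM per kb in L32 HSC-2 to HSC-5, and 7.08 and 6.11 in L29 HSC-3 and HSC-4. Cbx2 had 3.57, 1.601, 1.20 and 2.24 CPM per kb in the L32 sets, and 0.377 and 2.85 in the L29 sets. Cbx7 was higher than Cbx2 in all sets but L32 HSC-2, with a log2 difference of 1.54 ± 1.53 (SD, n = 6 sets, exact sign-flip p = 0.0625, adjusted 0.104). Cbx8 had 0, 4.77, 0.164 and 10.7 CPM per kb in the L32 sets, and 2.76 and 5.54 in the L29 sets. Cbx7 was higher than Cbx8 in all sets but L32 HSC-5, and the log2 difference was 1.58 ± 2.29 (exact p = 0.219, adjusted 0.273). Single cells held 96.1% of the Cbx7 reads in L32 HSC-2, 71.0% in L29 HSC-4, and 67.8% of the Cbx8 reads in L32 HSC-5. With each gene taken without its highest cell in every set, Cbx7 was above Cbx2 in 5 of 6 sets and above Cbx8 in 4 of 6. In L29 HSC-4 Cbx8 was then higher, with 3.06 CPM per kb against 1.80 for Cbx7. Cbx8 and Cbx2 could not be ordered: the log2 difference was -0.04 ± 3.07 (exact p = 0.969), while the mean level was higher for Cbx8.

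Co-detection of the Cbx genes was rare. Cbx7 alone was at 10 CPM in 38 cells, Cbx8 alone in 13 and Cbx2 alone in 10, while 5 cells had at least 2 of the 3. The product of set shares would give 3.19 cells with Cbx7 and Cbx8 and 1.92 with Cbx7 and Cbx2, and 2 were found of each. In L32 HSC-2 the cells with a Cbx gene had Cbx2 alone (3 cells) or Cbx7 alone (2 cells), and in L29 HSC-4 Cbx8 alone (4 cells) was the largest class. Cbx7 shares up to 291 exon bases with Apobec3 on the opposite strand, which had 30241 reads against 2743 for Cbx7. The mean partial rho of the pair across cells was 0.030.

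The number of Polycomb genes in a cell moved with how many genes the cell showed in all. None of the 10 was detected in 40 cells, 1 in 70, 2 in 60, 3 in 40, and 4 or more in 22, with a maximum of 7. The median number of genes detected was 4710.5 in cells with none, 5111.5 with 1 and 5222 with 2. It was 5974 in cells with 3, 5851 with 4 and 7176 in the 9 cells with 5. The part of detection depth in co-detection was not tested beyond the thinning given above.

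A background level was taken from wells called near-empty here. In L32 HSC-2 and HSC-3, 38 wells failed the cell filter and had more spike-in than gene reads. They held 616795 gene reads in all, with a median of 8793.5 and a maximum of 74667 per well. The labels put most of them on plate 2, and most kept cells of these sets on plate 1. The comparison thus cannot separate the kind of well from the plate. The 66 kept cells of the same sets had 55.6 CPM of Bmi1, against 8.11 CPM in the near-empty wells. Ezh2 had 34.9 CPM in kept cells and 3.24 CPM in near-empty wells, and Suz12 33.2 CPM in kept cells and 3.24 CPM in near-empty wells. Rnf2 had 130 CPM in kept cells and 109 CPM in near-empty wells, but 97.0% of the near-empty reads came from 1 well, and without it the level was 3.54 CPM. Ezh1 had 105 CPM in kept cells and 373 CPM in near-empty wells, where 1 well held 95.2% of the reads and 19.5 CPM remained without it. Eed had 57.4 CPM in kept cells and 332 CPM in near-empty wells, 27.9 CPM without the 1 well that held 91.7% of its reads. Cbx7 had 44.8 CPM in kept cells and 24.3 CPM in near-empty wells, which rests on 15 reads in 3 wells. Cbx8 had 10.5 CPM in kept cells and 1.62 CPM in near-empty wells, and Cbx2 had 10.2 CPM in kept cells and 0 CPM in near-empty wells. Ring1 had 5.24 CPM in kept cells and 3.24 CPM, or 2 reads, in near-empty wells. The floor of 3 reads in these wells is 4.86 CPM, so Ring1 in kept cells was hardly above what the background wells could resolve.

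**Figure D4:**
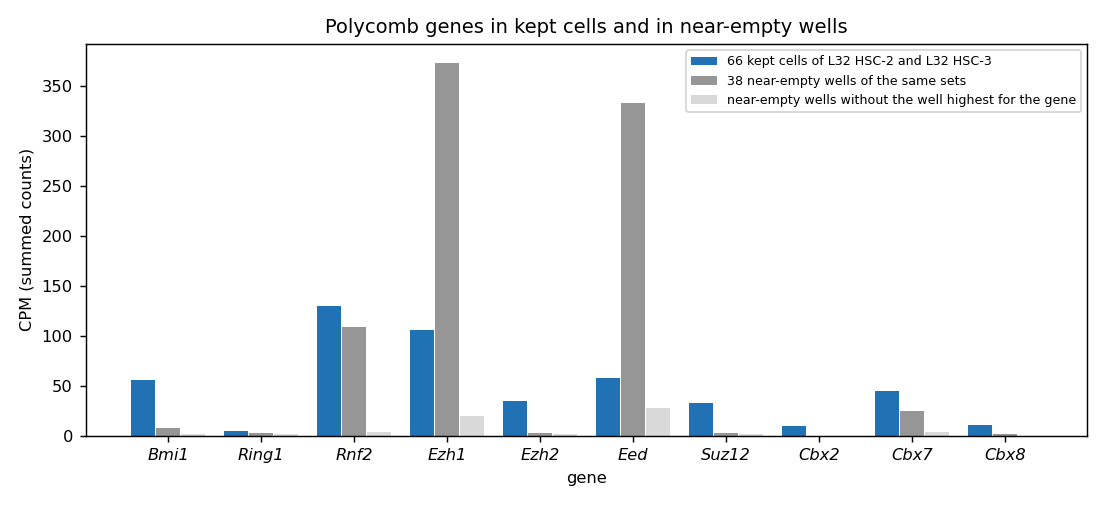
Summed CPM of each Polycomb gene in the 66 kept cells of sets L32 HSC-2 and HSC-3, in the 38 near-empty wells of the same sets, and in those wells without the well highest for the gene. Ezh1 and Eed exceed the kept cells in near-empty wells through 1 well each and fall to 19.5 and 27.9 CPM without it.

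The library series L32 and L29 are the division of cells in the labels that could be tested, and are a technical or experimental batch rather than a treatment. With edgeR's quasi-likelihood test on the 4 L32 and 2 L29 sums, 0 of 16476 genes passed an adjusted p of 0.05 (0%), 1433 had an unadjusted p under 0.05, and 0 of the 10 Polycomb genes passed. Ezh1 had 80.3 to 164 CPM in the 4 L32 sets, against 41.6 and 51.5 CPM in the 2 L29 sets, so that the series did not overlap. Its log2 fold change, L32 over L29, was 1.39 (SE 0.41), with an unadjusted p of 0.013 and an adjusted p of 0.450 by edgeR's quasi-likelihood test. Over the edgeR alternatives the adjusted p of Ezh1 ran from 0.381 to 0.839. DESeq2's Wald test gave 0.0400 and called 410 of 14791 genes, 299 of them (2.02%) higher in L32. Ring1 had 0 to 8.72 CPM in L32 sets and 8.76 and 13.6 CPM in L29 sets, also without overlap (log2 fold change -1.71, SE 2.07, adjusted p = 0.848 by edgeR). These 2 of the 10 genes had sets that did not overlap, against 22.5% of all genes tested; 7.87% of genes lay higher and 14.7% lower in L32 without overlap. The other 8 ran from -0.37 for Cbx7 to 0.55 for Suz12 in log2 fold change, with Rnf2 at 0.28, Bmi1 at 0.48, Cbx2 at 0.47, Cbx8 at -0.05, Eed at -0.09 and Ezh2 at -0.11. The median over the 10 was 0.12, against 0.07 over all genes tested, and 5 of 10 were higher in L32. This balance rested on the 2 L29 sets: without L29 HSC-3 the median was -0.33 with 4 genes higher, and without L29 HSC-4 it was 0.54 with 8 higher.

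Relations to the state of the cell were described within sets. Each score was the mean log2(CPM/10 + 1) of a list over a cell: 31 S-phase and 30 G2/M genes for the cell cycle, 24 growth genes, most of them of the nucleolus and ribosome biogenesis, and 29 genes of long-term HSCs (LT-HSC). RNA content was the log2 of gene reads per spike-in read. Partial Spearman rho across the cells of a set was taken given genes detected, total counts and plate, and averaged over sets. Cells of a set share library preparation, so the values describe and carry no p. The 7 genes detected in at least 10% of cells were followed, and placed among the 9689 genes that reached that share.

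Ezh1 and Ezh2 lay on opposite sides for growth. Ezh1 had a mean rho of -0.169 with the growth score, with -0.310, -0.298, -0.189 and -0.171 in L32 HSC-2 to HSC-5 and -0.088 and -0.038 in L29 HSC-3 and HSC-4. All 6 sets were negative, and 2.66% of genes had a lower mean rho. Ezh2 had a mean rho of 0.115, with 0.019, -0.098, 0.247 and 0.122 in the L32 sets and 0.134 and 0.226 in the L29 sets. Here 5 of 6 sets were positive, and 85.7% of genes were lower. Ezh1 was below Ezh2 in 6 of 6 sets for growth and in 6 of 6 for the cell cycle, where the mean rho was -0.138 for Ezh1 and 0.061 for Ezh2. For the cell cycle Ezh1 had 0.018, -0.360, -0.012 and -0.231 in L32 HSC-2 to HSC-5, and -0.050 and -0.090 in the L29 sets. Ezh2 had 0.033, 0.013, 0.348 and 0.011 in the L32 sets, and -0.034 and 0.010 in the L29 sets. The 2 genes thus lay close in L32 HSC-2 and L29 HSC-3, and the Ezh2 mean rested mostly on L32 HSC-4. For RNA content Ezh1 was below Ezh2 in 5 of 6 sets, and for the LT-HSC score in 2 of 6. With the plate as the only covariate, both genes shifted upward: Ezh1 had -0.035 with growth and 0.018 with the cell cycle, and Ezh2 had 0.247 and 0.255. These correlations were weak, and both genes lay within the central 95% of all genes for growth (-0.172 to 0.213).

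**Figure D5:**
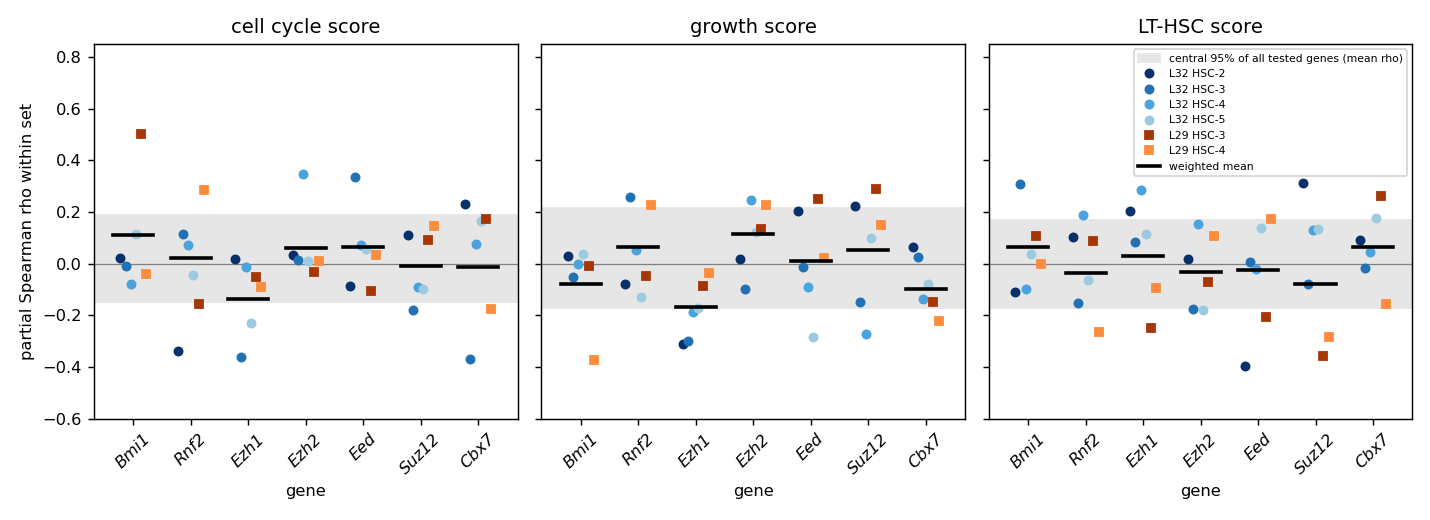
Partial Spearman rho across the cells of each set between 7 Polycomb genes and the cell cycle, growth and LT-HSC scores; points are the 6 sets, black bars the weighted mean, and the grey band the central 95% of mean values over 9689 genes. Ezh1 lies below zero in every set for growth, and the mean of every gene lies inside the grey band.

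The other Polycomb genes showed no common direction. Bmi1 had a mean rho of 0.112 with the cell cycle score, with 0.502 in L29 HSC-3 and 3 of 6 sets positive. For growth, Cbx7 had -0.100 and Bmi1 -0.078, both positive in 2 of 6 sets, and Rnf2 had 0.064. For the LT-HSC score the largest mean values were 0.065 for Cbx7 and -0.077 for Suz12. The median over the 7 genes was 0.020 for the cell cycle, 0.009 for growth, -0.025 for LT-HSC and -0.007 for RNA content, against 0.012, 0.006, 0.002 and 0.009 over all 9689 genes. Between the 7 genes themselves, 13 of 21 pairs (61.9%) had a positive mean rho, with a median of 0.015. Of pairs of a member with any tested gene, 51.4% were positive, with a median of 0.002. The highest pair was Ezh1 with Suz12 (0.156) and the lowest Bmi1 with Ezh1 (-0.162).

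For each of the 7, the gene most like it across the 232 cells was taken by the largest mean partial rho over the 6 sets among 9688 others. It was Mamdc2 for Bmi1 (0.278), Srrt for Rnf2 (0.336), Tyw1 for Ezh1 (0.307), Impa2 for Ezh2 (0.319), Cnep1r1 for Eed (0.305), Rps6ka4 for Suz12 (0.255) and 1700047I17Rik2 for Cbx7 (0.340). The sign was positive in 6 of 6 sets for Srrt, Tyw1, Impa2 and Cnep1r1, in 5 for Rps6ka4, in 4 for Mamdc2 and in 3 for 1700047I17Rik2. Each is the largest of 9688 values.

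The remaining subunits of the 2 complexes gave the context for these levels. Of 19 other PRC1 genes, 14 reached 10% of cells and 1 reached 50%: Cbx6, a further Cbx paralog, was detected in 68.1% of cells at 26.7 ± 10.2 CPM per kb. Its mean level was above those of Cbx7, Cbx8 and Cbx2. Of 8 other PRC2 genes found in the table, 6 reached 10% of cells, and the histone-binding subunits Rbbp7 (80.2% of cells, 145 ± 20.9 CPM per kb) and Rbbp4 (66.4%, 18.5 ± 4.97) reached 50%. Both also belong to other chromatin complexes. Of 6 genes listed as opposing Polycomb, some of which remove the methyl mark or the ubiquitin of H2A, 5 reached 10% of cells and 0 reached 50%. The highest share was 36.6%. In the library series comparison 0 of these genes passed edgeR's adjusted p. DESeq2's Wald test called Phf19, an accessory subunit of PRC2 detected in 3.45% of cells, as higher in L32 (adjusted p = 0.0319), where edgeR's adjusted p was 0.544.

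Loci known as Polycomb targets were seldom detected. Of 20 such genes, 14 were not detected at 10 CPM in any cell and 1 reached 10% of cells, where 27286 of all 49671 genes were not detected in any cell. Cdkn2a, the locus that Bmi1 is known to repress, was detected in 0 of 232 cells, which by the floor of 3 cells allows a share at 10 CPM of up to 1.29%, and Cdkn2b in 1 cell (0.431%). The exception was Olig2, detected in 61.2% of cells at 18.0 ± 14.5 CPM (mean ± SD, n = 6 sets). In L32 HSC-2 and HSC-3 it had 13.6 CPM in kept cells against 1394 CPM in the near-empty wells, where all 38 wells held it.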

How the data were processed

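Single-cell libraries were made from poly(A) RNA by template switching and PCR, per the labels' protocols. Read counts for every gene and well were deposited by the authors in 1 table. The submitters' processing notes name featureCounts 1.6.2, GSNAP and the build mm10, without their order; the table's name gives the annotation release. Of 49764 rows, 92 spike-in rows (5.88% of counts in kept cells) and 1 transgene row were left out. Of 49671 genes, 49326 had a symbol. The 10 members and the gene lists were chosen with earlier results of these data known.

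From the counts, CPM, CPM per kb of the table's gene length, shares of cells and partial Spearman correlations were computed (Python 3.11.15, numpy 2.4.6, pandas 2.3.3, scipy 1.17.1, matplotlib 3.10.9). Paralogs were compared over 6 sets by exact two-sided sign-flip tests with a pseudocount of 0.1. The library series were compared with edgeR 4.0.16 (TMM, filterByExpr, quasi-likelihood, Benjamini-Hochberg) and, as an alternative, DESeq2 1.42.0, in R 4.3.3. The edgeR and correlation steps were tested on simulated data. All members were named; of other complex genes, those in at least 50% of cells or past an adjusted p of 0.05; of target loci, those in at least 10% of cells, Cdkn2a and Cdkn2b; and per member, the gene most like it. Genes that overlap a member, and the cell type markers printed with a share, were named after their values were seen, as was Phf19. Alternatives were another detection bar, thinning to 100000 reads, a stricter cell filter (within 3 median absolute deviations, 198 cells), other scaling, pseudocount 1, other covariates and leaving out each set. Cells were sorted singly, and doublets were not called. Promoter sequences are from RefSeq, GRCm38.p6. Ezhip was not matched in the table.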

Additional observations from a re-analysis of the deposited data

Results flagged for a closer look

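The level of Suz12 in the set L32 HSC-4 was 17.7 CPM per kb, far from the other 5 sets, which lay between 2.56 and 7.96 CPM per kb. The gap to the next set took up 0.643 of the whole range. In that set 1 cell held 47.6% of the Suz12 reads, and the level without it was 10.4 CPM per kb. As a mean over cells, Suz12 had 49.5 CPM there, against 47.2 CPM in L32 HSC-3, so the set did not stand apart on that scale. Chance alone marks about 1 in 20 groups of 6 in this way, and both the levels and the shares of cells of 10 genes were looked at.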

How the results depend on the processing

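With the stricter cell filter, Ezh1 minus Ezh2 was 1.22 in log2 with an exact p of 0.03125, the smallest possible, while Cbx7 minus Cbx2 was 0.97 (p = 0.3125, against 0.0625 in all kept cells). With a pseudocount of 1, Cbx7 minus Cbx8 was 0.77 (p = 0.219) and Ring1 minus Rnf2 -3.68. Without the highest cell of each gene in each set, an alternative chosen after seeing the data, Ezh1 minus Ezh2 was 1.35 (p = 0.125), Cbx7 minus Cbx2 1.76 and Cbx7 minus Cbx8 1.21 (each p = 0.15625), and Ring1 minus Rnf2 -5.17 (p = 0.03125), while Cbx8 minus Cbx2 turned positive (0.56). Leaving out a set gave Ezh1 minus Ezh2 from 0.95 to 1.64, Ring1 minus Rnf2 from -5.46 to -4.39 (p = 0.0625), Cbx7 minus Cbx2 from 1.07 to 1.95, Cbx7 minus Cbx8 from 0.96 to 2.19 and Cbx8 minus Cbx2 from -0.57 to 0.99. Cbx8 minus Cbx2 turned positive without L32 HSC-2 (0.99) or L32 HSC-4 (0.41), with a pseudocount of 1 (0.35), and as a share of cells (0.0807 percentage points). For the library series, 1 gene was called with the stricter filter, 2 without the count filter and 410 by DESeq2's Wald test, and 0 when any set was left out. Whether the HSC code pairs the sets is not known. Deviations of sets that share a code from their series mean correlated at 0.035 for code 3 and 0.003 for code 4. Because L29 has 2 sets, their deviations mirror each other, so the 2 values are not independent. They cannot decide whether a code stands for a shared mouse or sort. An alternative chosen after seeing the data, with the code as a replicate block, called 0 genes, with 1006 at an unadjusted p under 0.05; the median of the 10 members was then -0.25 and Bmi1 was -0.56. Members with a positive mean rho for the cell cycle were 4, and 7 with the plate as only covariate. For growth they were 4, 1 with the stricter filter and from 2 (without L29 HSC-3) to 4 when a set was left out. For RNA content they were 3, 1 with the stricter filter, 6 with plate only and from 3 to 5 (without L32 HSC-2) when a set was left out. For the cell cycle leaving out a set gave 3 to 5, and for LT-HSC 2 to 4. The cause of these shifts was not tested. The count of members in at least 10% of cells stayed at 7 without any set and was 9 at 1 CPM or 1 read. In single genes, 90 of 90 alternative levels moved by less than the spread between sets. Most of these left out 1 set, and dropping 1 of 6 sets cannot move a mean by that spread, so they were no test. At this depth, a gene at 1 or 2 reads in a cell falls under the 10 CPM bar in the median cell.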
